A study of Mus musculus with 24 samples.

Results

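The effect of β-estradiol (E2) was examined in P815 cells carrying a negative control vector. P815 is a mouse mastocytoma line, a tumour of mast cells. The comparison rests on 6 of the 24 libraries of the study, which were chosen by their group labels. They are 3 libraries of vector control cells given E2 for 24 h (NC_E2) and 3 libraries of vector control cells without E2 (NC), for which the labels state no time. No dose and no vehicle are labelled, and the cells grew in medium with 10% fetal bovine serum. The labels are silent on whether replicates were cultured separately, so p-values measure their spread, which may be technical in part. The other 18 libraries carry a hairpin against Esr1 (SH) or were given ICI-182780 (ICI) or tamoxifen (Tamo), each with and without E2. They are used here to ask whether a difference in vector control cells was also present elsewhere. None of them is labelled as carrying the control vector together with a drug.

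E2 enters cells and binds estrogen receptors alpha and beta, which are transcription factors encoded by Esr1 and Esr2. The bound receptors act at estrogen response elements, palindromes of the half-site GGTCA, or through other DNA-bound factors, and recruit coregulators. A membrane receptor, Gper1, signals through G proteins. Mast cells have been described as responsive to estrogens, and the genes named below are grouped by their place in this pathway or by their function.

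The 6 libraries held 57.7, 44.7 and 58.5 M estimated counts in NC_E2 and 53.1, 58.4 and 63.5 M in NC. They carried the defining transcripts of the mast cell lineage in part. Kit, the receptor of stem cell factor, was at 136, 127 and 101 FPKM, a level scaled to gene length and library size, in NC_E2 and 136, 133 and 105 FPKM in NC. Cpa3, mast cell carboxypeptidase A3, stood at 306, 188 and 195 FPKM in NC_E2 and at 290, 183 and 185 FPKM in NC. Fcer1a, the alpha chain of the IgE receptor, stayed below 1 FPKM in all 6. Of the markers of other cell types, 1 of 12 for T and NK cells, 1 of 8 for B cells, 2 of 12 for macrophages and neutrophils, 0 of 10 for fibroblasts and epithelium and 6 of 12 for erythroid cells and megakaryocytes reached the level needed for a test, and 0 of these had an unadjusted p under 0.05 for E2. These are bulk RNA levels, in which fewer cells of a type and less RNA per cell cannot be told apart.

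No gene passed the test for E2 in vector control cells. Genes were tested if at least 3 of the 24 libraries reached 1 FPKM. Of these 12183 genes, 0 (0.0%) had an adjusted p under 0.05 by edgeR's quasi-likelihood test with Benjamini-Hochberg adjustment, which is the test meant below unless another is named. At an unadjusted p under 0.05 there were 244 genes (2.0%), 122 higher in NC_E2 (1.0%) and 122 lower (1.0%). With the replicate number as a block, 0 genes (0.0%) passed and 529 (4.34%) had an unadjusted p under 0.05. Both shares lay below the fraction of 0.05 that this threshold admits where no gene differs, so these genes are no set of called responses. Not every fit gave so few. On the 6 libraries alone with the block, 1245 of the 12183 genes had an unadjusted p under 0.05, above that fraction, and 3 passed. There were 4 calls by DESeq2 and 0 by limma, and a fit on the 6 libraries alone gave 3 (0.0246%). The genes below are therefore given as values, in the order of their role.

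The precision of the comparison was moderate. Log2 fold changes had a median standard error (SE) of 0.21, and the 95% interval of 80.5% of the genes lay within a 2-fold change in either direction. With the replicate block the median SE was 0.149. SEs and intervals below come from the fit without the block unless another fit is named. A log2 fold change above 1 was seen for 112 genes (0.919%) and below -1 for 121 genes (0.993%). The libraries of the groups did not overlap for 442 genes that were higher in NC_E2 (3.63%) and for 412 that were lower (3.38%).

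The receptors themselves were low. Esr1, on chromosome 10, stood at 0.389, 0.319 and 0.234 FPKM in NC_E2 and at 0.404, 0.435 and 0.187 FPKM in NC. The groups overlapped, and at 185 to 392 estimated counts the gene fell under the FPKM minimum. In the fit on every gene with a count its log2 fold change was -0.12 ± 0.35 SE (edgeR unadjusted p = 0.741). Esr2 was listed without a count in all 3 NC_E2 libraries and had at most 4 estimated counts in NC. Gper1 did not exceed 0.0115 FPKM in NC_E2 or 0.0130 FPKM in NC. Pgr, the progesterone receptor and a classical estrogen target, had no count in any of the 6 libraries. For Esr2, Gper1 and Pgr neither a change nor its absence can be shown at this depth.

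The receptor's coregulators were well expressed. Of 33 listed coregulators 31 were tested, and 24 had a negative and 7 a positive log2 fold change, with a median of -0.13 against -0.00 over all genes tested. Of all 12183 genes tested 6112 were negative, and the median of the coregulators in the other arms was -0.05. Genes of a list share libraries and are not independent. A single member had an unadjusted p under 0.05. This was Tbl1xr1, a subunit of the corepressor complex of NCoR and SMRT, at 4.28, 5.36 and 4.11 FPKM in NC_E2 and 4.73, 9.45 and 7.06 FPKM in NC (log2 fold change -0.63 ± 0.29 SE, edgeR adjusted p = 0.9998). Its groups overlapped, since NC replicate 1 lay between the NC_E2 libraries, and without NC replicate 2, the highest, the value was -0.37. For Ncoa4, a coactivator that is also the receptor for ferritin in autophagy, the groups did not overlap, with 12.5, 7.40 and 11.1 FPKM in NC_E2 and 13.7, 20.1 and 14.4 FPKM in NC (-0.64 ± 0.31, edgeR adjusted p = 0.9998). Prmt1, an arginine methyltransferase that acts as a coactivator, was lower in each of the 3 numbered pairs, at 73.1, 83.8 and 92.5 FPKM in NC_E2 and 85.0, 94.4 and 107 FPKM in NC, while its groups overlapped. The chaperone gene Hsp90ab1, whose product holds the unliganded receptor, had a log2 fold change of 0.02 and the immunophilin gene Fkbp4 one of 0.10.

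Genes that respond to estrogen in breast, uterus or pituitary did not pass either. Of 47 listed genes 46 had a row in the table and 25 were tested; 12 had a positive and 13 a negative log2 fold change, with a median of -0.01. None had an unadjusted p under 0.05, and with the replicate block 1 did, the cell cycle transcription factor gene Mybl1. For 17 of the 25 the 95% interval stayed within a 2-fold change in either direction. Greb1, a growth regulator induced by estrogen in breast cancer cells, stood at 2.42, 3.33 and 2.98 FPKM in NC_E2 and 5.15, 3.25 and 3.08 FPKM in NC. The higher NC mean came from replicate 1, the other libraries overlapped, and the log2 fold change was -0.40 with a 95% interval from -1.03 to 0.23 (edgeR adjusted p = 0.9998). Without NC replicate 1 it was -0.13. Mybl1 was at 0.969, 0.927 and 1.41 FPKM in NC_E2 and 1.24, 2.04 and 1.59 FPKM in NC (-0.56 ± 0.29). Nrip1, a corepressor that the receptor induces, ranged from 3.18 to 6.01 FPKM in NC_E2 and from 2.34 to 8.35 FPKM in NC, so the NC range enclosed the NC_E2 range. Igfbp4, an insulin-like growth factor binding protein, stood at 87.2, 193 and 207 FPKM in NC_E2 and 87.6, 172 and 88.7 FPKM in NC, and its interval, from -0.62 to 1.59, reached furthest upward. Intervals were narrow for the lysosomal protease gene Ctsd, the amino acid transporter gene Slc7a5 and the growth factor gene Vegfa, at log2 fold changes of 0.02, 0.00 and 0.04.

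**Figure D1:**
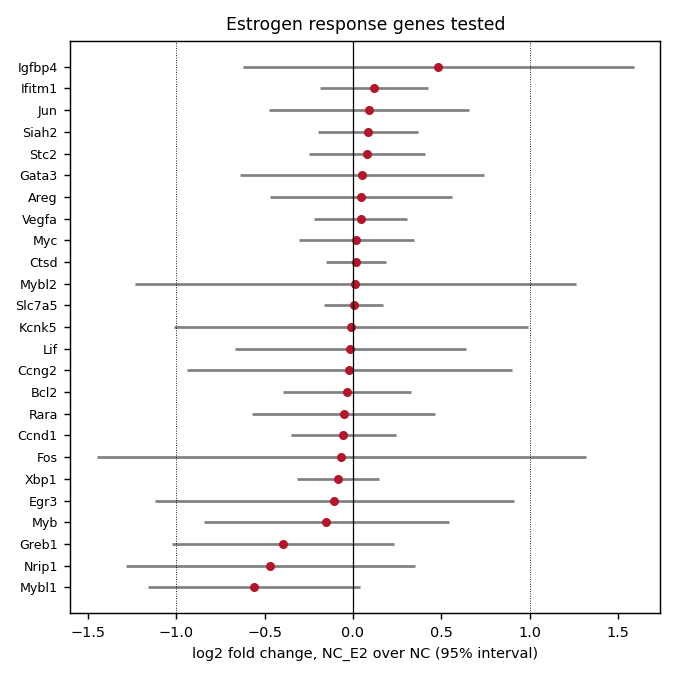
Log2 fold change of NC_E2 over NC (points) with its 95% interval (lines) for the 25 estrogen response genes that were tested, sorted by value, and dotted lines at a 2-fold change. Every interval includes 0, with Mybl1 and Igfbp4 at the ends at -0.56 and 0.48.

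The promoters of the genes in question can be read beside these values. RefSeq windows of GRCm38.p6, from 250 bases before to 50 bases after a gene's start, were searched on both strands for the full element GGTCANNNTGACC and for its half-site GGTCA or TGACC. The full element was in 23 of 32851 windows (0.07%) and in a window of 0 of the 8240 tested genes that have one. The half-site was in a window of 3472 of these genes (42.1%), so its presence in a given promoter is common. The 250 bases before the start are shown for Nlrp3 and Galnt10, the genes that passed for E2 in the other arms, and for Greb1. They lie at chr11:59541319-59541568 on the plus strand, chr11:57645192-57645441 on the plus strand and chr12:16800887-16801136 on the minus strand, and capitals mark a half-site.
Nlrp3: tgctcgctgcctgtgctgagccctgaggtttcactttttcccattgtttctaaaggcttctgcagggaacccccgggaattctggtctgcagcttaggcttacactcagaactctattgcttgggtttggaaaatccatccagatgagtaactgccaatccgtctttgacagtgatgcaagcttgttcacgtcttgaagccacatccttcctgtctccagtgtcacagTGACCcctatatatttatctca
Galnt10: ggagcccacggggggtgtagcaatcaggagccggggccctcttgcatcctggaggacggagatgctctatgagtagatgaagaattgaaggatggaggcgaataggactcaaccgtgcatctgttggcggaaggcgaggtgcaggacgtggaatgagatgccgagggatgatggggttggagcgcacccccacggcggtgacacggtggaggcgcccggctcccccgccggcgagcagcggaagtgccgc
Greb1: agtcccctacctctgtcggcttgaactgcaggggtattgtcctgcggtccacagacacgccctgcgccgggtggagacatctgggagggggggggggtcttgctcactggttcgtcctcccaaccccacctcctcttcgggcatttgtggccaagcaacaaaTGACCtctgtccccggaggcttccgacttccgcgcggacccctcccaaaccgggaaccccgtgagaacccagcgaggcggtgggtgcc
A half-site stood at position -22 from the start in Nlrp3 and at position -88 in Greb1, and these letters are not in the stretch shown for Galnt10. Only exact matches were sought. In Nlrp3 the half-site follows the letters tgtcacag, which depart from the full element in their first letter. How common such imperfect elements are was not counted. A match is a description of the letters and no measurement of binding.

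Some genes that were higher with E2 in vector control cells were also higher with E2 in the other arms, which share no library with this comparison. There, the average over SH, ICI and Tamo called 2 genes (0.0164%), or 6 (0.0492%) with the replicate block. Of the 122 genes higher in NC_E2 at an unadjusted p under 0.05, 18 (14.8%) were also among the 136 such genes in the other arms, of which they are 13.2%. Over all genes tested that share was 1.12%. Of the 122 lower genes, 5 (4.10%) were among the 106 lower genes of the other arms (4.72% of those), against 0.870% of all genes tested. Both comparisons come from 1 fit and share its estimate of the spread. The E2 difference itself was set against that of the other arms for every gene, and 0 genes passed (0.0%), with 200 (1.64%) at an unadjusted p under 0.05 and 457 (3.75%) with the replicate block.

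Nlrp3, the sensor of the NLRP3 inflammasome, showed the largest difference of those 18 that are protein-coding and above 1 FPKM in every NC library. It lies on chromosome 11 at 59541568 to 59566956 (GRCm38). It stood at 6.89, 7.78 and 3.28 FPKM in NC_E2 and at 1.88, 1.37 and 1.42 FPKM in NC. Every NC_E2 library lay above every NC library, and the lowest, replicate 3, was still above the highest of NC. The log2 fold change was 1.93 ± 0.59 (edgeR unadjusted p = 0.00392, adjusted p = 0.9998), against 2.99 ± 0.36 in the other arms (edgeR adjusted p = 0.00100). The difference between these effects, -1.05 ± 0.66, did not pass (edgeR unadjusted p = 0.129). In the other arms the 9 libraries with E2 ran from 1.29 to 10.6 FPKM with a median of 4.01, and the 9 without E2 from 0.219 to 1.44 FPKM with a median of 0.518. The NC libraries thus lay above 8 of the 9 libraries without E2, and the NC_E2 libraries within the range of those with E2.

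Of 21 listed inflammasome genes 13 were tested, and some central members were at or near 0. The adaptor gene Pycard and the cytokine gene Il1b had no count in any of the 6 libraries, and the protease gene Casp1 had none in NC_E2 and at most 8 estimated counts in NC. The pore-forming genes Gsdmd and Gsdme were expressed and had log2 fold changes of 0.08 and -0.08. Ninj1, which ruptures the membrane of dying cells, stood at 49.0, 45.9 and 31.6 FPKM in NC_E2 and 27.0, 25.3 and 30.2 FPKM in NC. Its groups did not overlap, and the difference of 0.61 ± 0.34 did not pass (edgeR adjusted p = 0.9998). Nek7, the kinase that licenses NLRP3, is taken up below.

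Galnt10, a transferase that starts O-linked glycosylation, stood at 10.6, 7.88 and 8.65 FPKM in NC_E2 and 5.27, 5.69 and 6.95 FPKM in NC. The groups did not overlap, and the log2 fold change of 0.59 ± 0.14 (edgeR unadjusted p = 0.000578, adjusted p = 0.9998) stood beside 0.51 ± 0.08 in the other arms (edgeR adjusted p = 0.0358). The gene was higher with E2 in all 3 numbered pairs of vector control cells and in all 9 pairs of the other arms. The size of the difference was thus 0.08 ± 0.17 apart between them.

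Rmnd5b, a subunit of an E3 ubiquitin ligase, and N4bp3, a NEDD4-binding protein, are neighbours on the minus strand of chromosome 11, at 51623671 to 51635896 and 51643063 to 51650842. Rmnd5b stood at 51.9, 43.0 and 48.2 FPKM in NC_E2 and 30.3, 31.0 and 40 FPKM in NC. N4bp3 stood at 10.8, 8.11 and 9.82 FPKM in NC_E2 and 5.54, 6.70 and 8.14 FPKM in NC. The groups of Rmnd5b did not overlap, while NC replicate 3 of N4bp3 lay just above the lowest NC_E2 library. Their log2 fold changes were both 0.49 in vector control cells, at ± 0.15 and ± 0.18, and both 0.39 in the other arms. Rmnd5b overlaps the snoRNP gene Nhp2 on the opposite strand, which stood at 145, 166 and 194 FPKM in NC_E2 and 127, 140 and 180 FPKM in NC. The strand protocol is not stated, so reads of overlapping genes cannot be told apart.

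Por, the cytochrome P450 oxidoreductase that supplies electrons to steroid-metabolising enzymes, stood at 105, 98.6 and 103 FPKM in NC_E2 and 88.6, 80.3 and 84.6 FPKM in NC. This was a small difference with little spread, 0.27 ± 0.08 (edgeR unadjusted p = 0.00230), beside 0.20 ± 0.04 in the other arms. Of the 27 listed genes of estrogen synthesis and metabolism 11 were tested, and Por was the only one of them with an unadjusted p under 0.05. The estrogen-oxidising enzyme gene Cyp1b1 had no count and aromatase, Cyp19a1, at most 4 estimated counts. Hsd17b12, a ketoreductase of fatty acid elongation and estradiol synthesis, ranged from 47.4 to 91.4 FPKM in NC_E2 and from 47.5 to 94.0 FPKM in NC, nearly the same span.

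Tap2, a subunit of the peptide transporter of MHC class I, was another of the 18. It stood at 36.3, 26.4 and 28.6 FPKM in NC_E2 and 24.5, 20.9 and 23.1 FPKM in NC. The groups did not overlap, and the values were 0.41 ± 0.15 in vector control cells (edgeR adjusted p = 0.9998) and 0.38 ± 0.09 in the other arms. Without NC_E2 replicate 1 the value was 0.27. The opposite strand of Tap2 holds Gm15821, which was at 2.80, 1.14 and 1.44 FPKM in NC_E2 and 0.176, 0.166 and 0.241 FPKM in NC. Psmb9 and Psmb8, which encode subunits of the immunoproteasome, were not among the 18. Psmb9, which overlaps Tap1 on the opposite strand, stood at 6.0, 9.29 and 7.03 FPKM in NC_E2 and 4.40, 4.0 and 5.71 FPKM in NC, and its groups did not overlap. NC was low for Psmb9. The 9 libraries of the other arms without E2 ran from 5.30 to 9.29 FPKM, and 1 of them did not exceed the highest NC library. Psmb8 stood at 31.9, 22.3 and 30.8 FPKM in NC_E2 and 18.8, 21.1 and 23.1 FPKM in NC, with an overlap at the lowest NC_E2 library. Their log2 fold changes were 0.66 ± 0.23 and 0.43 ± 0.20 in vector control cells and 0.06 and 0.17 in the other arms. Of 22 tested genes of the class I pathway and immune checkpoints, these 3 were higher at an unadjusted p under 0.05, beside 1.0% of all genes tested, 0 were lower, and the median was -0.01.

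The guanylate-binding protein genes Gbp11 and Gbp4, interferon-inducible GTPases, were also among the 18, at low levels. Gbp11 was at 1.09, 0.632 and 0.262 FPKM in NC_E2 and 0.226, 0.125 and 0.114 FPKM in NC. Gbp4 was at 1.96, 0.790 and 0.468 FPKM in NC_E2 and 0.398, 0.647 and 0.259 FPKM in NC. NC_E2 replicate 1 was the highest of the 6 libraries for both, and the groups overlapped for Gbp4 and not for Gbp11. That library alone of the 6 reached 1 FPKM, so both genes were tested only because libraries of other arms reached it too. The 26 tested interferon response genes had a median of -0.07, with 0 members at an unadjusted p under 0.05. Il4ra, the interleukin-4 receptor, stood at 40.7, 38.6 and 37.6 FPKM in NC_E2 and 29.2, 34.9 and 31.7 FPKM in NC (0.28 ± 0.12). Epb41l4b, a FERM-domain protein, stood at 5.39, 4.10 and 3.93 FPKM in NC_E2 and 3.44, 3.80 and 3.61 FPKM in NC (0.30 ± 0.11, against 0.31 ± 0.06 in the other arms). By arm its log2 fold change for E2 was 0.07 in SH, 0.53 in ICI and 0.34 in Tamo. Without NC_E2 replicate 1 the value of Epb41l4b was 0.15. The groups of both genes did not overlap, and neither passed (edgeR adjusted p = 0.9998). The Notch effector gene Hey2, the ubiquitin ligase gene Rnf170 and the ribosome maturation gene Las1l complete the named protein-coding genes of the 18, at log2 fold changes of 0.92, 1.78 and 0.17. For Hey2 the value ran from 0.60 without NC_E2 replicate 1 to 1.40 without NC replicate 2. Of the 6 libraries only NC_E2 replicates 1 and 2 reached 1 FPKM for Hey2.

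**Figure D2:**
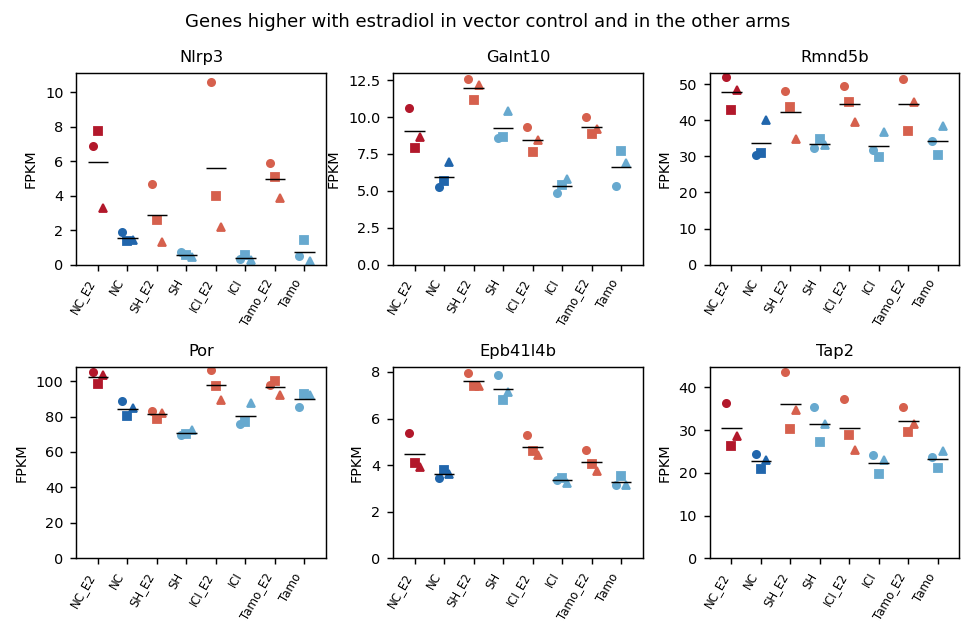
FPKM in each library (points: circle replicate 1, square replicate 2, triangle replicate 3) and the group mean (line) for 6 genes that were higher with E2 in vector control cells and in the other arms; red shades mark groups with E2 and blue shades groups without. For Nlrp3 the NC_E2 libraries at 3.28 to 7.78 FPKM lie above the NC libraries at 1.37 to 1.88 FPKM, and for Por all 3 NC_E2 libraries exceed the highest NC library of 88.6 FPKM.

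A second kind of gene was low in NC and at the level of the other arms in NC_E2. Ccdc71, a coiled-coil protein of unknown function on chromosome 9, had the smallest p of all. It stood at 8.96, 5.08 and 10.7 FPKM in NC_E2 and at 4.35, 3.80 and 3.33 FPKM in NC (1.11 ± 0.19, edgeR adjusted p = 0.150). All 21 other libraries lay at 5.08 FPKM or above, and NC_E2 replicate 2 was the lowest of those. In a comparison that uses the same NC libraries, NC was lower than the other arms without E2 (-1.42 ± 0.17, edgeR adjusted p = 0.000274), whereas NC_E2 did not differ from the other arms with E2 by the test (-0.26 ± 0.16, edgeR adjusted p = 0.999). Without NC_E2 replicate 2 the E2 difference was 1.36 and passed (edgeR adjusted p = 0.000192). Ccdc71 overlaps Klhdc8b, which averaged 0.525 FPKM in NC_E2 and 0.495 FPKM in NC, on the opposite strand.

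Mmgt2, a magnesium transporter of membranes, stood at 3.56, 1.95 and 2.31 FPKM in NC_E2 and 0.304, 0.402 and 0.196 FPKM in NC (3.08 ± 0.57, edgeR adjusted p = 0.195). Of the other 18 libraries, 17 lay at 1.20 FPKM or above and a single one, ICI_E2 replicate 3, was as low as NC. NC was lower than the other arms without E2 (-3.06 ± 0.53, edgeR adjusted p = 0.0155), a call lost without any single NC replicate (edgeR adjusted p = 0.137, 0.0571 and 0.151 without replicates 1, 2 and 3). NC_E2 did not pass against the arms with E2 (0.15 ± 0.42). Fdx2, a mitochondrial ferredoxin of iron-sulfur cluster assembly, stood at 14.4, 4.35 and 11.3 FPKM in NC_E2 and 3.37, 4.31 and 3.34 FPKM in NC (1.44 ± 0.39, edgeR adjusted p = 0.9998). NC_E2 replicate 2 was next to NC, and NC lay below all 21 other libraries. Fdx2 overlaps Gm38431 on the same strand, so its reads may be split. Socs6, a suppressor of cytokine signalling, stood at 2.86, 2.90 and 2.65 FPKM in NC_E2 and 2.34, 1.04 and 1.02 FPKM in NC (0.93 ± 0.28). NC replicates 2 and 3 were low, replicate 1 was near the other groups, and on replicates 2 and 3 alone the gene passed (1.42, edgeR adjusted p = 0.00221). In the other arms ICI_E2 replicate 1 was also low, at 1.22 FPKM, and the fit on replicates 2 and 3 left that library out.

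Genes for which NC lay below all 21 other libraries numbered 5 of 12183 (0.041%), namely Ccdc71, Fdx2, Dgcr6, Ccl25 and the pseudogene Oaz2-ps, of which the last 3 were chosen after their values were seen. No gene lay with NC above all others. NC_E2 lay below all others for Senp2 and Akap12 and above them for Hars and Noc2l, 2 genes (0.0164%) each way. The chemokine gene Ccl25 illustrates the size of such differences, at 0.901, 0.837 and 0.896 FPKM in NC_E2 and 0.752, 0.720 and 0.690 FPKM in NC. For these genes an effect of E2 and a low NC group cannot be told apart, since NC is both the group without E2 and the group that stands apart.

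Vector control cells differed from the average of the other arms in more genes than those. NC against the other arms without E2 called 20 genes (0.164%), 12 higher and 8 lower in NC, and 166 (1.36%) with the replicate block. NC_E2 against the other arms with E2 called 11 genes (0.0903%), and 177 (1.45%) with the block. These comparisons share no library, and 8 genes were in both, 40% of the 20 and 72.7% of the 11. They include the mast cell receptor gene Mrgprb1, the granzyme gene Gzmb and the carboxypeptidase gene Cpvl, which had log2 fold changes for E2 of -0.01, 0.25 and -0.04. Of the 20 genes, 3 had an unadjusted p under 0.05 for E2 in vector control cells, namely Ccdc71, Mmgt2 and Hgfac, beside 2.0% of all genes tested. Both comparisons use the NC libraries, so this count is not independent of the calls. The arms differ in vector and drug, so these differences cannot be assigned to either. NC and NC_E2 were not tested against SH, ICI and Tamo singly, and an average can be moved by 1 unlike arm. Cpa3, for example, averaged 517 FPKM in SH, 217 FPKM in ICI and 210 FPKM in Tamo.

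A further kind of gene was lower in NC_E2 than in both NC and the other arms with E2. Akap12, a scaffold for protein kinases A and C, stood at 0.861, 0.696 and 0.696 FPKM in NC_E2 and 1.44, 1.17 and 1.23 FPKM in NC (-0.77 ± 0.17, edgeR adjusted p = 0.786). NC_E2 lay below all 21 other libraries, the lowest of which held 0.918 FPKM. Against the other arms with E2, a comparison that uses the same NC_E2 libraries, it was lower by the test (-0.81 ± 0.14, edgeR adjusted p = 0.0202), a call lost without any single NC_E2 replicate (edgeR adjusted p = 0.0506, 0.203 and 0.215 without replicates 1, 2 and 3). NC was near the average of the other arms without E2 (0.03 ± 0.14). That average joined unlike arms, with means of 1.77 FPKM in SH and 1.07 FPKM in both ICI and Tamo. With E2 the means were 1.89 FPKM in SH_E2, 1.12 FPKM in ICI_E2 and 1.11 FPKM in Tamo_E2, so the called difference was largest against SH_E2. Cadm4, a cell adhesion molecule, stood at 1.5, 1.31 and 0.946 FPKM in NC_E2 and 2.51, 1.80 and 1.64 FPKM in NC. Its NC_E2 libraries all lay below the lowest of the other arms with E2, at 1.75 FPKM. The lowest library of the other arms without E2 held 1.48 FPKM, below NC_E2 replicate 1. Sema3d, a secreted guidance factor, stood at 18.8, 17.1 and 14.9 FPKM in NC_E2 and 22.1, 22.6 and 18.6 FPKM in NC, with a small overlap. Cav2, a caveolin, stood at 5.71 FPKM in all 3 NC_E2 libraries and at 6.88, 7.43 and 7.58 FPKM in NC, so its groups did not overlap. Tamo, an arm without E2, was nearly as low for Sema3d and Cav2. It averaged 17.7 FPKM for Sema3d and 5.85 FPKM for Cav2, beside 16.9 and 5.71 FPKM in NC_E2. The low level of Sema3d and Cav2 was thus not particular to NC_E2.

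Slc2a9, a urate transporter, and Tex21, a testis-expressed gene, belong to the same 12 genes with the smallest p among the lower ones, at low levels. Slc2a9 stood at 0.461, 0.307 and 0.238 FPKM in NC_E2 and 0.710, 0.534 and 0.569 FPKM in NC. Tex21 was listed without signal in 2 of the 3 NC_E2 libraries and at 0.0464 FPKM in the other, against 0.240, 0.175 and 0.0631 FPKM in NC. Both genes were higher in all 3 SH_E2 and all 3 SH libraries than in the 18 others. Only SH_E2 and SH libraries reached the 1 FPKM needed for a test. Neither gene was tested with the filter on the 6 libraries. Of these 12 lower genes, 2 had a negative value for E2 in the other arms, and of the 12 higher genes with the smallest p, 8 had a positive one. Over all genes tested 56.3% had the same direction in both. Among those at an unadjusted p under 0.05 it was 60.7% of the 122 higher and 52.5% of the 122 lower genes, near that share.

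Some genes took separate levels among the 24 libraries that did not follow the groups. Nek7, the kinase that binds NLRP3, stood at 4.90, 4.81 and 5.03 FPKM in NC_E2 and 20.8, 20.1 and 19.2 FPKM in NC. The spread within each group was small beside the gap, and the fit on the 6 libraries alone called the gene (-2.03 ± 0.09, edgeR adjusted p = 0.000972). Over all 24 libraries it took a low level of 3.72 to 7.12 FPKM in 17 and a high level of 18.2 to 23.3 FPKM in 7. The high level was in 0 of 3 NC_E2, 3 of 3 NC, 1 of 3 SH_E2, 1 of 3 SH, 1 of 3 ICI_E2, 1 of 3 ICI, 0 of 3 Tamo_E2 and 0 of 3 Tamo libraries. With the spread of all 24 libraries the difference was -2.03 ± 0.73 (edgeR adjusted p = 0.9998).

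Lsm12, an RNA-binding protein and a partner of NAADP-gated channels, behaved alike, at 6.56, 7.86 and 7.66 FPKM in NC_E2 and 21, 22.9 and 26.0 FPKM in NC. It was low, at 5.29 to 8.92 FPKM, in 11 libraries and high, at 18.6 to 26.9 FPKM, in 13, and the high level was in 0 of 3 NC_E2, 3 of 3 NC, 3 of 3 SH_E2, 1 of 3 SH, 1 of 3 ICI_E2, 3 of 3 ICI, 2 of 3 Tamo_E2 and 0 of 3 Tamo libraries. The 6 libraries alone gave -1.66 ± 0.14 (edgeR adjusted p = 0.0297) and all 24 gave -1.67 ± 0.52 (edgeR adjusted p = 0.9998). Of 7135 genes with a mean of 5 FPKM or more, 113 (1.58%) were split by a gap of at least 2-fold with 3 or more libraries on each side. Eif5, a translation initiation factor, stood at 28.8, 37.7 and 33.1 FPKM in NC_E2 and 57.6, 81.4 and 75.8 FPKM in NC (-1.11 ± 0.30). It was called on the 6 libraries with the block (-1.10, edgeR adjusted p = 0.0387). The other arms spanned 28.8 to 89.9 FPKM with E2 and 40.2 to 83.5 FPKM without. Larp4, which binds poly(A) tails, stood at 4.19, 5.0 and 12.4 FPKM in NC_E2 and 13.8, 15.5 and 15.3 FPKM in NC, so replicate 3 of NC_E2 was near NC.

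**Figure D3:**
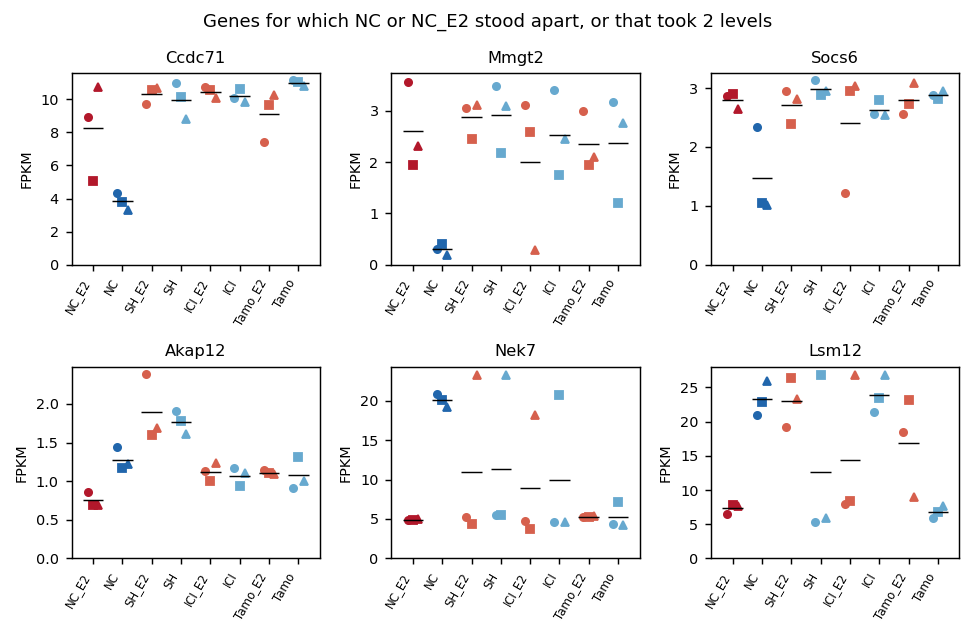
FPKM in each library (points: circle replicate 1, square replicate 2, triangle replicate 3) and the group mean (line) for 6 genes; red shades mark groups with E2 and blue shades groups without. NC is low for Ccdc71, Mmgt2 and, in 2 of 3 libraries, Socs6, NC_E2 is low for Akap12, and Nek7 and Lsm12 take a low and a high level within several groups.

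The remaining genes with the smallest p were each of another function. Metrnl, a secreted regulator of immune and fat cells, stood at 59.3, 61.0 and 56.4 FPKM in NC_E2 and 45.8, 33.6 and 48.1 FPKM in NC (0.47 ± 0.14). Csnk1g3, a casein kinase, stood at 11.6, 10.6 and 9.48 FPKM in NC_E2 and 7.75, 6.77 and 6.05 FPKM in NC (0.62 ± 0.20). The groups of both did not overlap, and both were near 0 for E2 in the other arms, at 0.06 and 0.07. Metrnl averaged 29.6 FPKM in SH, 51.2 FPKM in ICI and 61.0 FPKM in Tamo, against 42.5 FPKM in NC. Tmem80, a ciliary membrane protein, stood at 1.80, 1.52 and 1.83 FPKM in NC_E2 and 1.15, 0.655 and 0.968 FPKM in NC. Pagr1a, a partner of the KMT2 methyltransferases that overlaps Gm42742 on the same strand, was at 0.795, 3.55 and 3.89 FPKM in NC_E2 and 0.628, 0.529 and 0.874 FPKM in NC, so replicate 1 of NC_E2 was at the NC level. Of the 6 libraries only NC_E2 replicates 2 and 3 reached 1 FPKM, so with the filter on the 6 libraries Pagr1a was not tested. Pcmtd2, a methyltransferase-like protein, was lower in NC_E2, at 2.04, 2.83 and 1.86 FPKM against 5.90, 5.18 and 3.77 FPKM in NC. Tmem33, a membrane protein of the endoplasmic reticulum, was at 9.21, 7.99 and 8.35 FPKM in NC_E2 and 10.5, 10.0 and 11 FPKM in NC. None of these passed (edgeR adjusted p = 0.9998).

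Genes of translation and respiration had mostly positive values of a small size. Of 82 tested cytosolic ribosomal protein genes 77 had a positive log2 fold change, with a median of 0.12, and 3 had an unadjusted p under 0.05. These were Rplp1, Rps14 and Rps29. Rps14 stood at 293, 293 and 337 FPKM in NC_E2 and 257, 219 and 254 FPKM in NC (0.34 ± 0.14). Of 86 nuclear genes of oxidative phosphorylation 76 were positive with a median of 0.09, and of 78 mitochondrial ribosomal protein genes 67 with a median of 0.08; in both lists 0 had an unadjusted p under 0.05. In the other arms the medians of the same 3 lists were 0.05, 0.03 and 0.05. The genes of a list share libraries and are not independent, many ribosomal protein genes have near-identical pseudogene copies that can split reads, and 6070 of all 12183 genes tested were positive.

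Mitochondrially encoded genes had mostly negative values. Of 13, 11 had a negative log2 fold change, with a median of -0.11, against 0.07 in the other arms. The complex I subunit gene mt-Nd6 stood at 1370, 1357 and 1378 FPKM in NC_E2 and 1702, 1632 and 1703 FPKM in NC (-0.30 ± 0.09, edgeR adjusted p = 0.9998). For mt-Nd5, which overlaps it on the opposite strand, levels were 1365, 1287 and 1277 FPKM in NC_E2 and 1611, 1447 and 1465 FPKM in NC (-0.21 ± 0.08). The groups of both genes did not overlap. Mitochondrially encoded genes took 4.78%, 4.98% and 5.19% of the counts in NC_E2 and 5.18%, 5.42% and 5.40% in NC. The difference of -0.35 percentage points did not pass (exact permutation test, two-sided p = 0.2, where 0.1 is the smallest p that 3 against 3 libraries allow). NC_E2 was lower in all 3 numbered pairs, for which an exact paired permutation test gave p = 0.25, the smallest that 3 pairs allow. Its part in the values of single genes was not tested.

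The lists of mast cell and growth genes had medians near 0, with members in both directions. Of 32 tested mast cell genes 0 had an unadjusted p under 0.05 (median 0.02). The largest positive value was that of Mcpt2, a mast cell protease, at 8.73, 7.67 and 5.76 FPKM in NC_E2 and 5.21, 5.15 and 4.61 FPKM in NC (0.56 ± 0.28, edgeR adjusted p = 0.9998). All 9 libraries of the other arms without E2 lay above NC, at 5.48 to 28.8 FPKM, and 2 of their 9 pairs were higher with E2. For Mcpt2 an effect of E2 and a low NC group thus cannot be told apart. The 15 tested mast cell cytokine and chemokine genes had a median of -0.02. Ccl7 and Ccl2, monocyte chemokines, were lower in all 3 numbered pairs. Ccl2 stood at 50.9, 78.1 and 51.9 FPKM in NC_E2 and 54.6, 90.7 and 55.3 FPKM in NC, with replicate 2 the highest of each group. Of 37 DNA replication, 37 mitosis, 19 G1 control, 18 p53 target and 28 immediate early genes tested, 0 had an unadjusted p under 0.05, with medians of 0.00, -0.03, -0.08, -0.03 and 0.04. Of 22 amino acid stress response genes 18 were positive, with a median of 0.04.

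**Figure D4:**
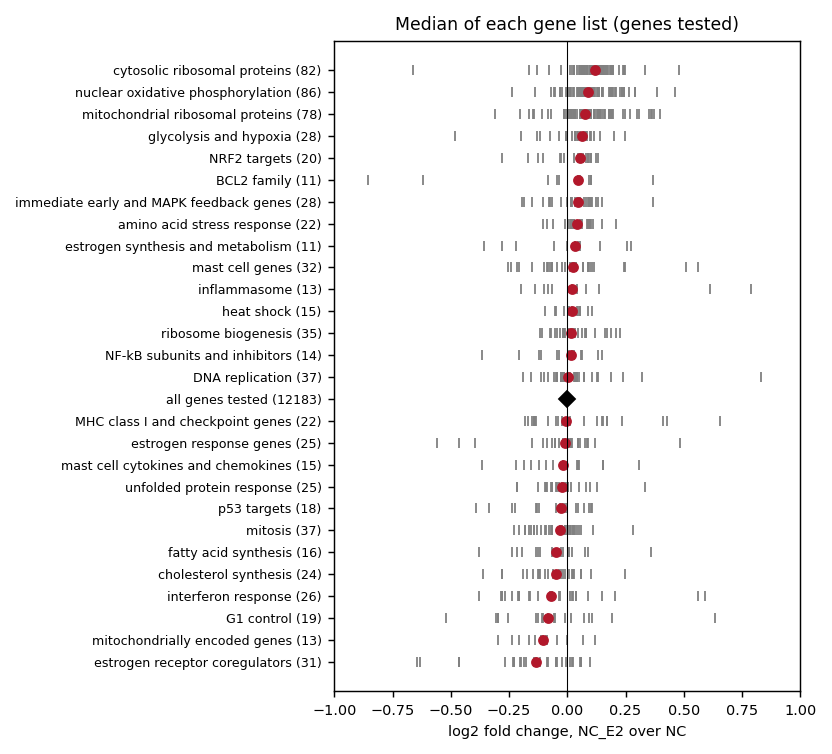
Log2 fold change of NC_E2 over NC for each tested member (ticks) and the median (red point) of every gene list with 10 or more genes tested, with the number tested in brackets, and the median of all genes tested as a black diamond. Cytosolic ribosomal proteins at 0.12 and coregulators at -0.13 mark the ends, and the axis leaves out Nlrp3 at 1.93 and Nek7 at -2.03 in the inflammasome list.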

How the data were processed

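The authors deposited 1 table of FPKM values and estimated (expected) counts for 55385 genes in 24 libraries; it holds 0 columns of other samples. The submitters' processing notes name cutadapt, HISAT2 and the GRCm38 build. What quantified the genes, from which annotation and with which versions is not given in the sources used here. Count columns as deposited hold whole numbers and were treated as estimated counts, because a value of 4 alone accounts for 16.2% of the low ones, and a plan written for raw counts was applied to them. The deposited FPKM values were used for levels.

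Totals ran from 42.1 to 68.8 M estimated counts. Genes with 1 FPKM or more in at least 3 libraries (12183, of which 9929 are protein-coding) were fitted with TMM scaling in edgeR 4.0.16 (R 4.3.3), 1 coefficient per group over all 24 libraries, and tested two-sided by quasi-likelihood with Benjamini-Hochberg adjustment (threshold 0.05). SE is the size of the log2 fold change divided by the root of F. The fit was also run on simulated counts drawn independently for each library. These held no replicate pairs and no genes with separate levels, so that run does not show how the test behaves with them. limma 3.58.1 on log2(FPKM + 1) or log2(FPKM + 0.1), DESeq2 1.42.0, RLE scaling, other filters, fewer libraries, counts divided by 4 and each replicate left out were alternatives. NC_E2 and NC share replicate numbers from the labels, and deviations from the group means correlated at 0.274, 0.170 and 0.272 for same-numbered libraries, so the numbers were taken as pairs and the block is an alternative.

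Named genes are protein-coding with no predicted or clone name: the 12 higher and 12 lower with the smallest p, any that passed with the block or on the 6 libraries, a fixed set (Esr1, Esr2, Gper1, Greb1, Pgr, Nlrp3, Por, Galnt10, Rmnd5b, Epb41l4b, Kit, Cpa3, Fcer1a) and up to 4 members of each list with the smallest p; others were chosen after their values were seen, among them the remaining genes shared with the other arms. The members and the 33 lists were chosen with earlier results of these data known. Promoter windows are RefSeq's.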

Additional observations from a re-analysis of the deposited data

How the results depend on the processing

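For E2 in vector control cells 0 genes passed in the fit as reported, with the replicate block, with RLE scaling, with limma at either pseudocount, with every gene that had a count, with the filter on the 6 libraries and with counts divided by 4. Calls were 3 on the 6 libraries alone (Nek7, Lsm12 and the predicted gene Gm50452), 3 on them with the replicate block (Nek7, Lsm12 and Eif5), 4 with DESeq2 (among them Ccdc71, Mmgt2 and Akap12), 1 on replicates 2 and 3 (Socs6) and 0 to 1 without a single replicate, the 1 being Ccdc71 without NC_E2 replicate 2 and a gene outside the naming rule without NC replicate 2. Genes at an unadjusted p under 0.05 numbered 244 as reported and 529 with the replicate block. They were 1245 of 12183 on the 6 libraries with the block and 612 of 28735 with every gene that had a count. Of these shares only that on the 6 libraries with the block lay above 0.05. The average of the other arms gave 6 calls with the block, against 2. NC against the other arms without E2 gave 166 with the block and 6 to 15 without a single NC replicate, against 20; NC_E2 against the other arms with E2 gave 177 with the block and 5 to 7 without a single NC_E2 replicate, against 11. The difference between E2 in vector control cells and in the other arms gave 0 to 1. The causes were not tested.

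The mitochondrial share differed by -0.253 to -0.459 percentage points without a single replicate and by -0.357 as a share of protein-coding counts (exact permutation p = 0.1, the smallest possible). With the numbers taken as pairs, an alternative chosen after seeing the data, it was -0.355 (exact paired p = 0.25, the smallest possible). Of 776 values of 46 genes for E2 in vector control cells, 759 kept direction and side of the threshold, 11 came to pass and 6 turned sign. The last were Kit, at -0.15 to 0.065 without a single replicate, and Cpa3, at -0.19 to 0.31. Depth limits Esr2, Gper1 and Pgr, which had 0 to 4 estimated counts a library.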

Other observations

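Several short or predicted genes outside the naming rule, chosen after their values were seen, took levels far apart within a group. The pseudogene Rpl10-ps1 stood at 257, 12.3 and 275 FPKM in NC_E2 and 18.7, 13.1 and 9.62 FPKM in NC, so replicates 1 and 3 of NC_E2 were high and replicate 2 was at the NC level. The predicted gene Gm50452, which lies within Gas5 on the same strand of chromosome 1 at 161037356 to 161037439, stood at 0.0856, 0.145 and 0.130 FPKM in NC_E2 and 16.6, 25.1 and 24.0 FPKM in NC. Its high level of 10.4 to 26.5 FPKM was also in 0 of 3 SH_E2, 2 of 3 SH, 0 of 3 ICI_E2, 3 of 3 ICI, 1 of 3 Tamo_E2 and 1 of 3 Tamo libraries, while Gas5 averaged 33.5 FPKM in NC_E2 and 34.5 FPKM in NC. The small nucleolar RNA gene Snord100 was high in a single library of the 6, NC_E2 replicate 3, at 22.3 FPKM. Its neighbour Snora33 was high in NC replicate 2, at 6.72 FPKM, and stayed below 0.2 FPKM in the other libraries of both groups. How reads shared with host genes or near-identical copies were counted is not given in the sources used here.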
